A study of Homo sapiens with 28 samples.

Results

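The genes described here make, bind or break down hyaluronan, and comprise versican (VCAN), the hyaluronan receptors CD44 and HMMR, the hyaluronan synthases HAS2 and HAS3, and HYAL2, CEMIP and CEMIP2, which take part in hyaluronan breakdown. These 8 genes of the 62703 gene rows in the deposited count tables were chosen by name from GENCODE symbols, with their counts in these libraries already known. Their fold changes and p-values therefore describe the libraries and are not independent evidence for the choice. RNA-seq measured polyA RNA in 24 libraries of human colorectal cancer (CRC) cell lines, with 3 libraries in each of 8 groups. MDST8, a metastatic CRC line of the mesenchymal subtype CMS4, gave a wild-type (WT) group and 5 TWIST1 knockout (KO) clones, 1.1, 2.2, 3.2, 3.5 and 3.6, each grown from a single sorted cell after CRISPR-Cas9 editing. The sample titles name the clones TG1, TG2 and TG3, and put groups 3.2, 3.5 and 3.6 under TG3 as replicates. The paper names a clone 3.6, so these groups are treated here as separate clones. What TG stands for is not stated. LoVo, a metastatic line outside that subtype, gave a group transduced with TWIST1 shRNA by lentivirus and a group called shRNA control here. The paper's figure legend names wild-type LoVo cells as the comparator of the knockdown. Whether the control cells were transduced is therefore unclear, and LoVo differences may include that of transduction. Per the labels all were grown in DMEM with serum. TWIST1 is a transcription factor of epithelial-mesenchymal transition. Each KO group is read as a single clone. Nothing states that its 3 libraries came from separate cultures, so p-values measure the spread between these libraries. TWIST1 ChIP-seq of unedited cells gave a peak list for each line.

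Hyaluronan is a long unsulfated glycosaminoglycan. HAS enzymes build it at the plasma membrane from UDP-glucuronic acid and UDP-N-acetylglucosamine and push it directly into the extracellular space. There it is bound by versican, a large chondroitin sulfate proteoglycan of loose, hydrated matrix, and by the cell surface receptor CD44. Hyaluronidases such as HYAL2, together with CEMIP and CEMIP2, cut long chains into shorter ones. A versican- and hyaluronan-rich matrix is typical of tumor stroma and of cells that migrate.

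The labels were checked against TWIST1 and marker counts. TWIST1 mRNA in CPM, read counts scaled to the size of each library, was 46.5 ± 6.09 (SD, n = 3) in MDST8 WT and had clone means between 30.0 and 54.9. It was called lower only in clone 2.2 (log2 fold change -0.65, adjusted p = 2.37e-09, edgeR's quasi-likelihood test). Small edits made by Cas9 need not alter the amount of mRNA, so these counts do not check the knockouts. TWIST1 in LoVo had 73, 89 and 93 counts under the TWIST1 shRNA label and 0 in every library under the control label. This runs against the labels, so every LoVo direction below follows labels that the targeted gene contradicts. MDST8 lacked the colon epithelial markers CDX2 and CDH1, with at most 1 count in any library, but held KRT18 at 973 to 2395 and KRT8 at 196 to 401 counts, and VIM at 62600 to 88393, whereas LoVo expressed all 7 epithelial markers listed. The total count per library was 17252883 to 22217009 in MDST8 and 16567606 to 20889529 in LoVo. The mitochondrial share of counts was 3.49 to 3.96% under the LoVo control label but 5.47 to 10.89% under the TWIST1 shRNA label. The 10.89% belonged to replicate 1, the library least like the other two of its group.

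VCAN (ENSG00000038427.16) lies on the plus strand of chromosome 5 at 83471618 to 83582303, and CD44 (ENSG00000026508.21) on the plus strand of chromosome 11 at 35138882 to 35232402, in GENCODE v44 on hg38. The TWIST1 peak list of MDST8 held a peak just upstream of each 5′ end, in sequence that holds no annotated exon of either gene. Both are printed because they are the listed upstream peaks of versican and of the main hyaluronan receptor, with each E-box in capitals. An E-box is a hexamer of the pattern CANNTG, and it is the kind of site that basic helix-loop-helix factors such as TWIST1 bind. A match on either strand is also a match on the other, though its middle bases may read differently there. The VCAN peak spans chr5:83470746-83471020, 275 bp, and the CD44 peak spans chr11:35138597-35138834, 238 bp, both given on the plus strand, 5′ to 3′.
VCAN: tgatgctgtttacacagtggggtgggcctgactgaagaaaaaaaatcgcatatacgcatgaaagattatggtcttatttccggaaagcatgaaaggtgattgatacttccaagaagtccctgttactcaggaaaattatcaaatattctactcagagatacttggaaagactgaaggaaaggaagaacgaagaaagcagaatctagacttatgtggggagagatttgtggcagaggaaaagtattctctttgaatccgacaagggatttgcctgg
CD44: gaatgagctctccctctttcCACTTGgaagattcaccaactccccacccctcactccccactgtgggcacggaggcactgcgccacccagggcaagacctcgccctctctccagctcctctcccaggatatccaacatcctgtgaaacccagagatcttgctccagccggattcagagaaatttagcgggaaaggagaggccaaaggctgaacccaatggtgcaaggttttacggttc
The VCAN peak held no E-box and the CD44 peak held 1, CACTTG. Of windows of the same lengths at the middle of 21115 MDST8 peaks near protein-coding 5′ ends, 73.2% of those of 275 bp and 68.3% of those of 238 bp held at least 1. The hexamer CATCTG or its reverse complement CAGATG, an E-box variant counted among the CANNTG matches, was in neither peak and in 16% of the longer and 14% of the shorter of those windows. A match or its absence describes these letters and says nothing of whether TWIST1 binds there.

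VCAN was higher in every KO clone than in WT. The WT libraries held 279, 300.2 and 300.4 CPM. Clone 1.1 had 816, 779 and 777, clone 2.2 had 673, 656 and 627, and clone 3.2 had 727, 747 and 813. Clone 3.5 had 761, 742 and 854, and clone 3.6 had 579, 642 and 730. The lowest clone library was thus well above the highest WT library. By mean level the clones ran 1.1, 3.5, 3.2, 2.2 and 3.6. Of neighbours in that order, clones 3.2 and 2.2 did not overlap and the others did, but clone 3.6, with its highest library at 730, overlapped clone 3.2, with its lowest at 727.

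The fitted log2 fold change of VCAN was 1.41 in clone 1.1, 1.14 in clone 2.2, 1.36 in clone 3.2, 1.4 in clone 3.5 and 1.13 in clone 3.6, each with a standard error of 0.06. As a ratio of mean CPM this was 2.22 to 2.70 times WT. Adjusted p-values (Benjamini-Hochberg, over 13706 genes, edgeR's quasi-likelihood test) lay between 3.88e-21 and 3.41e-18. A gene is called where the log2 change exceeds 0.58 in size and the adjusted p is under 0.05, and VCAN was the only member called in all 5 clones. Of all genes tested, 3.17% were called up in every clone and 1.06% down in every clone. The 5 comparisons share the same 3 WT libraries.

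**Figure D1:**
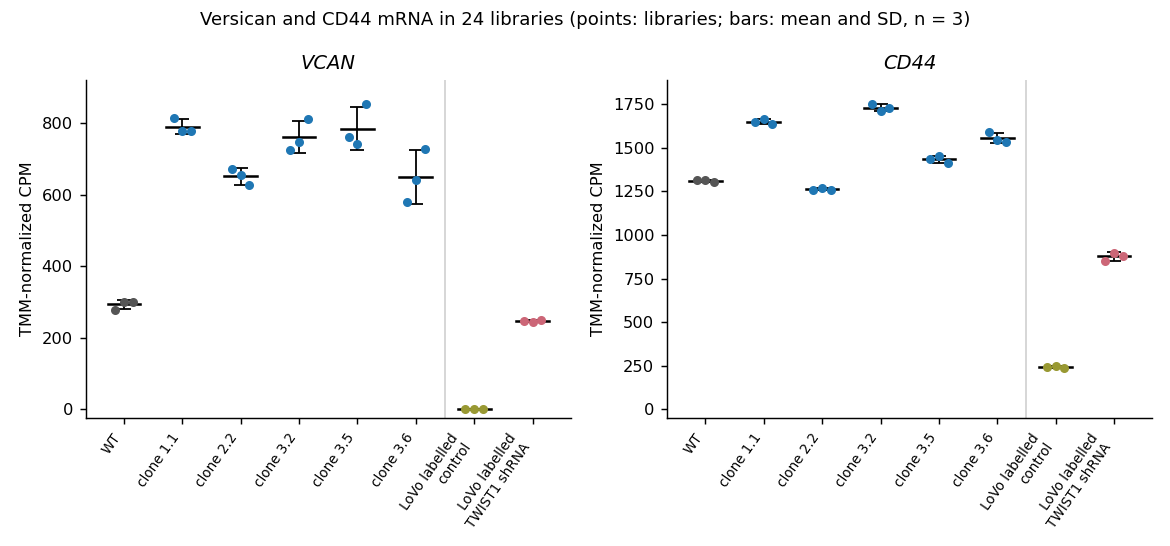
TMM-normalized CPM of VCAN and CD44 on linear axes in all 24 libraries, 3 points per group with the mean and SD, and a grey line between MDST8 and LoVo. VCAN in the 5 clones lay between 579 and 854 CPM against 279 to 300.4 in WT and was near 0 in the LoVo libraries labelled shRNA control, while CD44 moved less across MDST8, from 1257 to 1751 CPM.

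In LoVo, VCAN was almost undetected in the libraries labelled shRNA control, with 0, 0 and 1 counts. The libraries labelled TWIST1 shRNA held 4472, 3967 and 4249 counts, or 246, 244 and 249 CPM. Pooled over 3 libraries per group, the ratio of its shares of all counts was 13500, with a 95% exact conditional binomial interval of 2410 to 531000 that covers counting error only. That interval rests on the 1 control count, and so does the fitted log2 change of 13.18. The group labelled TWIST1 shRNA thus came close to the level of MDST8 WT, 293 ± 12.3 CPM (SD, n = 3), and its libraries did not overlap the WT ones. Without the high-mitochondrial replicate 1 the fitted log2 change was 13.19. Marker sums moved with the LoVo groups too. The 7 epithelial markers summed to 7770 to 8010 CPM with the control label and 4030 to 4450 with the TWIST1 shRNA label, and the 4 mesenchymal markers to 184 to 189 and 44.6 to 50.5, with CDH2 at 0 in the latter. Each of the 7 was lower under the TWIST1 shRNA label, and KRT8 and KRT18 made up most of their sum. CDX2 held 266 to 292 CPM under the control label and 30.9 to 36.7 under the other. KRT20 held 49.2 to 51.5 and 2.31 to 3.08, and VIL1 38.45 to 43.2 and 1.49 to 2.65. Summed fibroblast markers were higher, 4.46 to 6.39 CPM under the control label against 56.6 to 84.2 under the other. Counts were found for 3 of the 5 such markers in each group. COL1A1 was at 2.52 to 4.94 CPM under the control label and 55.7 to 83.6 under the other, and PDGFRB had 18 to 37 counts and 11 to 14. DCN was at 0 in both groups, COL1A2 had at most 1 count and LUM was at 0 in the libraries labelled TWIST1 shRNA. The immune marker PTPRC had at most 1 count in any LoVo library. The part of these in the LoVo values was not tested. In MDST8 the fibroblast sum was 632 to 642 CPM in WT and 323 to 1360 in the clones, lowest in clone 3.6 and highest in clone 1.1. Nearly all of it was COL1A1, at 609.5 to 620.5 CPM in WT, 308.3 to 338.7 in clone 3.6 and 1159 to 1333 in clone 1.1. COL1A2 had 3 to 16 counts in WT. The mesenchymal sum was 8900 to 9620 CPM in WT, 9200 to 10100 in clone 3.6 and 11100 to 16500 in the other clones. FN1 and VIM made up most of it, and ZEB1 and CDH2 did not follow it in every clone. ZEB1 was at 46.82 to 49.6 CPM in WT and lower in clones 2.2, 3.2 and 3.5, at 33.26 to 42.86. In clones 1.1 and 3.6 ZEB1 overlapped WT. CDH2 was at 149.0 to 151.9 CPM in WT, 134.2 to 137.0 in clone 3.5 and 163.7 to 183.8 in the other clones. The epithelial sum was 71.5 to 77.1 CPM in WT, 118 to 139 in clones 2.2 and 3.5, and 65.5 to 85.7 in the others. The mitochondrial share of counts was 2.4 to 3.05% in WT and 2.38 to 4.37% in the clones, highest in clone 3.5. The part of these in the MDST8 values was not tested. In bulk libraries fewer cells of a type and less RNA per cell cannot be told apart.

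CD44, the main hyaluronan receptor, was the most abundant member in both lines per length, with 131 ± 0.513 RPKM in WT (SD, n = 3). WT libraries held 1313, 1316 and 1306 CPM. Clone 3.2 was highest, with 1751, 1710 and 1729, followed by clone 1.1 with 1649, 1665 and 1638, clone 3.6 with 1591, 1547 and 1531, and clone 3.5 with 1435, 1452 and 1415. Clone 2.2 was below WT, with 1261, 1270 and 1257. No neighbours in this order overlapped, so the spread within groups was smaller than the steps between them. Yet the steps were small. Log2 fold changes against WT were 0.31, -0.07, 0.38, 0.11 and 0.23 in clones 1.1, 2.2, 3.2, 3.5 and 3.6, and none passed the 0.58 limit, although the adjusted p ranged from 4.62e-13 to 0.0406 by edgeR's quasi-likelihood test.

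In LoVo the libraries labelled shRNA control held 243, 249 and 234 CPM of CD44 and those labelled TWIST1 shRNA held 851, 897 and 882. The groups were far apart, at 1.88 ± 0.06 on the log2 scale (± standard error). The adjusted p was 2.71e-14 in edgeR's quasi-likelihood test over 14270 genes. VCAN per unit length amounted to 0.152 of CD44 in WT and to 0.285 to 0.373 in the clone means, on the RPKM scale. It came to 0.191 of CD44 in LoVo labelled TWIST1 shRNA.

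HMMR, a hyaluronan-binding protein that also sits on the mitotic spindle and rises in dividing cells, was lower in every clone library than in every WT library, but by little. WT held 60.2, 61.0 and 70.8 CPM and clone 1.1, the lowest, held 45.7, 45.9 and 47.1. The other clones lay between 51.5 and 58.8 CPM and overlapped one another. Log2 fold changes ran from -0.49 in clone 1.1 to -0.22 in clone 3.6 and none was called. LoVo labelled shRNA control held 73.5, 86.4 and 74.8 CPM and LoVo labelled TWIST1 shRNA held 132.5, 131.7 and 117.6, a log2 change of 0.72 (adjusted p = 1.11e-07, edgeR's quasi-likelihood test).

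HAS2, the synthase that makes most of the long-chain hyaluronan in mesenchymal cells, was the main synthase transcript of MDST8 and was nearly absent from LoVo. WT libraries held 153, 145 and 136 CPM. Clone 3.5 held 154, 159 and 155 and stood just above them, while the other 4 clones lay between 90.7 and 109.7. With CPM normalized within MDST8, clone 3.5 at 150.2 to 155.1 overlapped WT at 134.2 to 151.7. HAS2 fell in clones 1.1, 3.2 and 3.6, with log2 fold changes of -0.62, -0.66 and -0.61 (standard error 0.04 each). In clone 2.2 the value was -0.47, inside the limit, and in clone 3.5 it was 0.09 (adjusted p = 0.0666, edgeR's quasi-likelihood test). Calls in clones 1.1 and 3.6 sat close to the 0.58 limit. Without WT replicate A both were lost, and without clone 3.6 replicate B the call in 3.6 was lost too, with log2 changes that moved to -0.57 in clone 1.1 and as far as -0.56 in clone 3.6. In LoVo only 3, 9 and 8 counts were found with the control label and 6, 0 and 1 with the TWIST1 shRNA label, too few for the test. The pooled ratio of 0.371 had a 95% exact interval of 0.133 to 0.914 for counting error alone, and the groups overlapped.

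HAS3, a synthase often expressed in epithelial cells, had the opposite distribution between lines. MDST8 held few counts, 43, 62 and 52 in WT and 22 to 79 in the clones. Those of clones 1.1, 3.2 and 3.6 fell, with log2 fold changes of -0.75 ± 0.26, -0.67 ± 0.26 and -1.06 ± 0.27 (± standard error), and no CPM value of theirs overlapped WT. Clones 2.2 and 3.5 overlapped WT, at 0.26 ± 0.24 and -0.52 ± 0.26. These low counts made single libraries decisive. The clone 1.1 call was lost without WT replicate B or clone 1.1 replicate A, and the clone 3.2 call without WT replicate B or clone 3.2 replicate A or B, with values as close to 0 as -0.59 and -0.53. Without clone 3.5 replicate B the gene was called in clone 3.5 as well, at -0.73. In LoVo, HAS3 held 17.4, 14.2 and 15.1 CPM with the control label and 56.1, 59.2 and 54.6 with the TWIST1 shRNA label. The log2 change of 1.89 had a standard error of 0.09 (adjusted p = 5.75e-12, edgeR's quasi-likelihood test).

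**Figure D2:**
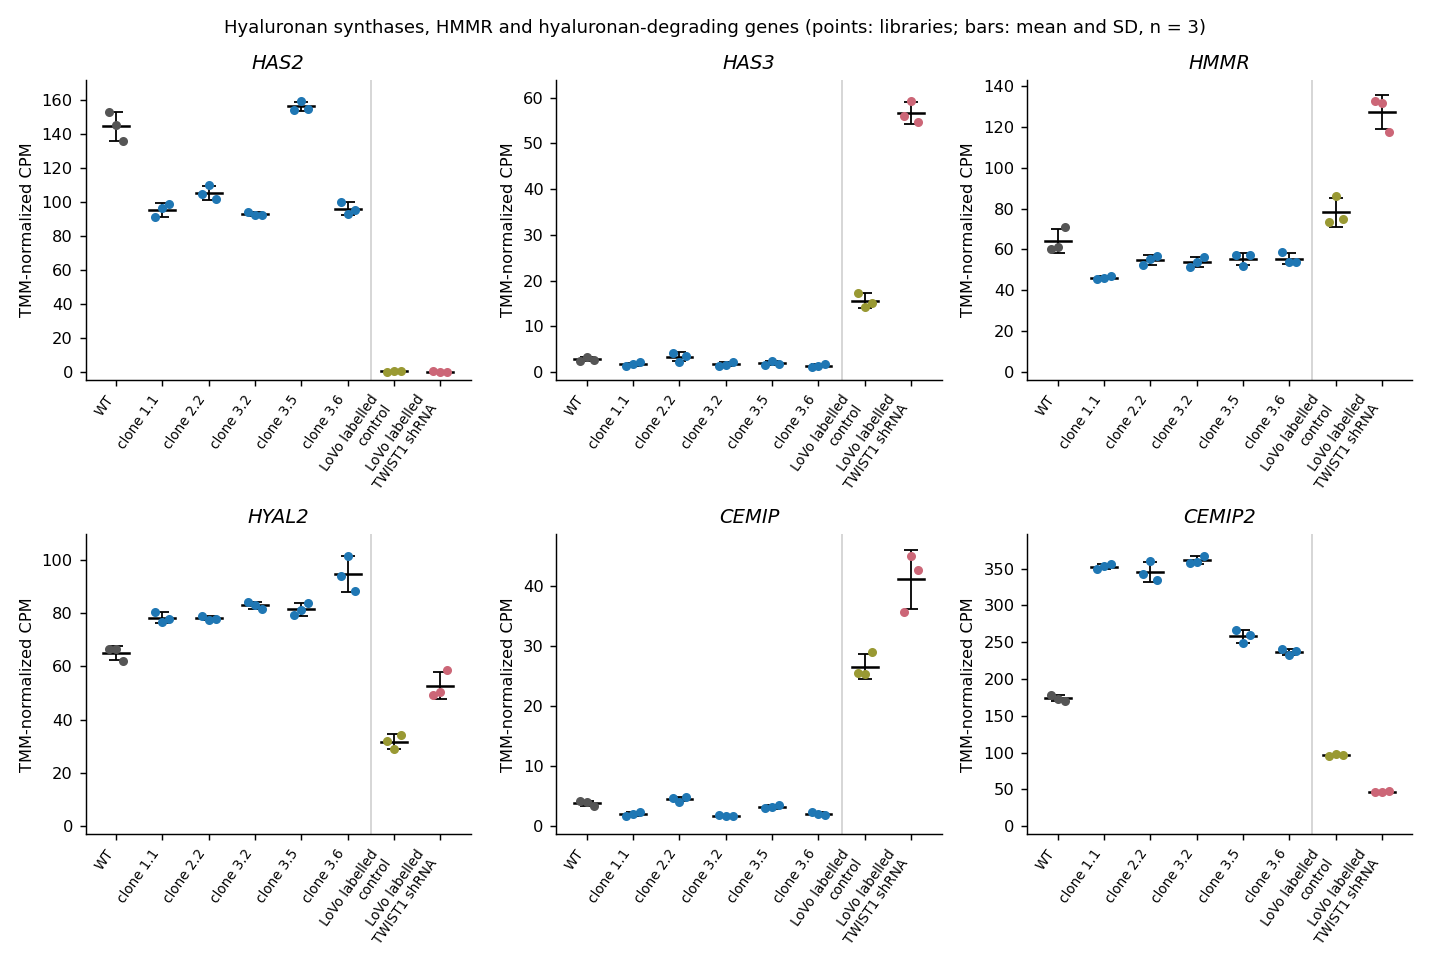
TMM-normalized CPM of HAS2, HAS3, HMMR, HYAL2, CEMIP and CEMIP2 on linear axes in 24 libraries, 3 points per group with the mean and SD. HAS2 and CEMIP2 were high in MDST8, HAS3 and CEMIP in LoVo, and clone 3.5 alone among the clones held HAS2 at or above WT, at 154 to 159 CPM.

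Among the genes of breakdown, CEMIP2, a cell surface protein described as a hyaluronidase, was higher in all clones. WT held 178, 173 and 171 CPM. The 3 clones 1.1, 2.2 and 3.2 lay between 334.5 and 367.6 CPM, close to each other, while clone 3.5 held 266, 248.5 and 259 and clone 3.6 held 241, 232 and 238. CEMIP2 rose in clones 1.1, 2.2 and 3.2, with log2 fold changes of 0.995, 0.97 and 1.03 (standard error 0.04 each). Values in clones 3.5 and 3.6 were 0.54 and 0.43, under the limit, with no overlap with WT. In LoVo it was the only one of the 7 members tested to be called lower under the labels, from 95.4, 97.5 and 96.7 CPM to 46.4, 45.9 and 48.5, a log2 change of -1.02 (standard error 0.06, adjusted p = 1.54e-10, edgeR's quasi-likelihood test).

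CEMIP, a protein needed for hyaluronan breakdown in fibroblasts, was scarce in MDST8, with 77, 79 and 65 counts in WT. It fell in clones 1.1, 3.2 and 3.6, with 31 to 50 counts and log2 fold changes of -0.95, -1.16 and -0.91 (standard error 0.19 each). Clone 2.2 held 82 to 89 counts and clone 3.5 held 49 to 68, and neither was called, with values of 0.21 and -0.28. The same 3 clones had called HAS2 and HAS3 lower. LoVo held more, at 25.6, 25.3 and 29.0 CPM with the control label and 35.7, 45.1 and 42.8 with the TWIST1 shRNA label. The log2 change was 0.65 and became 0.76 without replicate 1 of the latter.

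HYAL2, a hyaluronidase anchored to the cell surface, was higher in every clone library than in WT, but by little. WT held 66.5, 66.4 and 62.0 CPM, and the clones held 76.6 to 101.6. Clone 3.6 was highest at 94.7 ± 6.72 CPM (SD, n = 3), did not overlap clone 3.2 below it, and had a log2 fold change of 0.52. The others had values of 0.25 to 0.33, and no clone was called. In LoVo it went from 32.1, 28.8 and 34.4 CPM to 49.3, 50.6 and 58.6, a log2 change of 0.76 (adjusted p = 6.13e-07, edgeR's quasi-likelihood test). HYAL2 shares 11.5% of its exon bases with TUSC2 on the same strand, and HAS3 shares 7.0% with CHTF8 and DERPC and HAS2 5.9% with HAS2-AS1 on the opposite strand. The counting used no strand and dropped fragments that fit several genes, so fragments touching those bases were not counted.

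**Figure D3:**
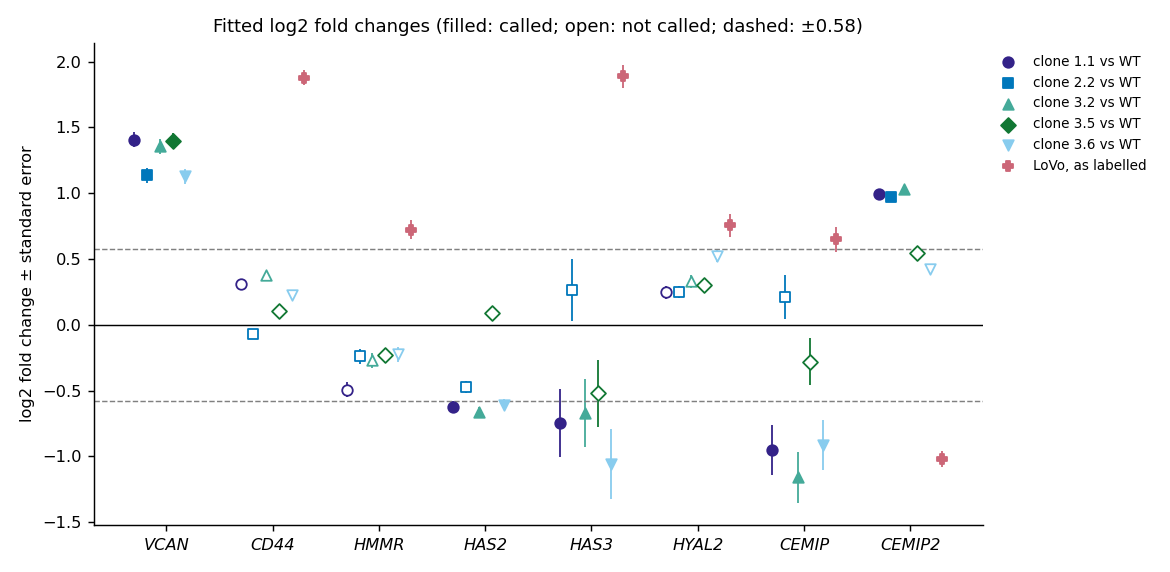
Fitted log2 fold change with its standard error for 8 members in the 5 clones against WT and in LoVo as labelled, with dashed lines at 0.58 in either direction. Filled symbols were called and open symbols were not. VCAN in LoVo, with 1 control count, and HAS2 in LoVo, not tested, are left out. VCAN lay between 1.13 and 1.41 in the clones, and the LoVo values of CD44 and HAS3 were 1.88 and 1.89.

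Counted over the members, 2 were called up in clone 1.1, VCAN and CEMIP2, and 3 down, HAS2, HAS3 and CEMIP, where 12% of all genes were called up and 7.49% down. In clone 2.2 the same 2 were up and none was down, against 8.05 and 6.64% of all genes. Clone 3.2 matched clone 1.1 member for member, against 10.9 and 6.09%. Clone 3.5 had only VCAN up and none down, against 11.2 and 7.25%. In clone 3.6 VCAN was up and HAS2, HAS3 and CEMIP were down, against 15.3 and 11.7%. In LoVo 6 of the 7 members tested were called up and 1 down, where 26.6% of all genes tested were up and 26.1% down. Since the members were chosen with these values known, the counts describe them and nothing is read from the contrast with all genes.

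The clones differed from each other in all 8 members by an F test over the 5 clones, with adjusted p-values from 9.91e-19 for CEMIP2 to 0.000433 for HMMR in edgeR. That test also called 81.0% of all genes, so it says little about these. With the further demand, added after the data were seen, that the highest and lowest clone differ by over 0.58, it called 4 members, HAS2, HAS3, CEMIP and CEMIP2, and 32.0% of all genes. The clone range was 0.28 for VCAN, 0.27 for HMMR, 0.28 for HYAL2 and 0.45 for CD44, where the median gene had 0.436. For CEMIP clone 2.2 was the highest and clone 3.2 the lowest, 1.37 apart. For HAS3 clone 2.2 was the highest and clone 3.6 the lowest, 1.32 apart. HAS2 was highest in clone 3.5 and lowest in 3.2, 0.75 apart, and CEMIP2 ranged over 0.605 from clone 3.2 to clone 3.6.

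The effect in LoVo, as labelled, minus the mean effect in the 5 clones had an adjusted p under 0.05 in all 7 members tested, as it did in 79.0% of the 12132 genes tested in both lines. CD44 differed by 1.65, HMMR by 0.97, HAS3 by 2.39, HYAL2 by 0.38 and CEMIP by 1.23 on the log2 scale, each higher in LoVo. CEMIP2 differed by -1.85, since it rose or stayed above WT in the clones and fell in LoVo. VCAN differed by 11.89, a value that rests on 1 count in the LoVo libraries labelled control. Adjusted p-values ran from 9.39e-29 for VCAN to 6.76e-05 for HYAL2 in edgeR's quasi-likelihood test.

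The genes around the members were taken from 7 lists with 76 genes in all, of which 48 were tested in MDST8 and 46 in LoVo. The lists were drawn up with earlier results of these data known. In the clones 4 to 11 of the 48 were called up and 4 to 7 down, and in LoVo 15 of 46 were called up and 8 down. Over all genes tested 8.05 to 15.3% were called up and 6.09 to 11.7% down in the clones, and 26.6% up and 26.1% down in LoVo, and every list count below stands against these shares. Of the 8 genes that make hyaluronan precursors or the synthase HAS1, 7 were tested and none was called up in any clone, while 1 to 3 fell per clone. GFPT2, which starts the hexosamine route, was at 0.56 in clones 3.2 and 3.6, under the limit. UAP1, which makes UDP-N-acetylglucosamine, fell in 4 clones, with log2 changes of -0.96 to -1.24, and was at -0.31 in clone 2.2. Its counts were 1891, 1889 and 2002 in WT and 847 to 1110 in those 4 clones. GNPNAT1, an earlier step of the same route, fell in clones 1.1, 3.2 and 3.5, by 0.66, 0.59 and 0.66 on the log2 scale. Its clone 3.2 call was lost without clone 3.2 replicate A or B or WT replicate C, moving as far as -0.53, and under limma on log2 counts, at -0.52, and in clone 2.2 it was called without clone 2.2 replicate B or WT replicate A, moving as far as -0.61. List medians lay between -0.24 and 0.01 in the clones, where the median over all genes tested lay between -0.014 and 0.003. In LoVo the list median was -0.10 against 0.01 over all genes tested. GNPNAT1 fell by 1.16, UGDH, which makes UDP-glucuronic acid, fell by 2.1, and GFPT2 rose by 3.81 from 11 to 16 counts to 175 to 233.

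Of 6 further hyaluronan receptors, 3 were tested in MDST8 and 2 rose in every clone, the innate immune receptors TLR4 and TLR2, which respond to hyaluronan fragments among other ligands. TLR4 had 101 to 108 counts in WT and 242 to 1123 in the clones, with log2 changes of 1.44 to 3.12. TLR2 had 33 to 42 counts in WT and 80 to 205 in the clones, with log2 changes of 1.2 to 2.25. The list median was 1.2 to 2.04 in the clones. In LoVo TLR2, the only receptor of the list tested, fell by 3.22 under the labels, from 97 to 129 counts to 5 to 19, and TLR4 had 10 to 21 counts under the control label and 0 in each library under the other. The only further hyaluronidase tested in MDST8, HYAL3, rose in every clone, with log2 changes of 0.67 to 1.2, and in clone 3.2 the call was lost without its replicate A, at 0.57. In LoVo 2 of these 4 genes were tested and none was called.

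Of 14 other hyaluronan-binding matrix genes only 3 were tested in MDST8 and 2 in LoVo, with 1 called in each direction in clone 3.6, none in the other clones and 1 up in LoVo. Medians were -0.15 to 0.38 in the clones and 0.64 in LoVo. BCAN, a brain relative of versican, was called up in clone 3.6 (40 to 48 counts against 12 to 29 in WT) and in LoVo, by 0.99 and 0.77. The gene called down in clone 3.6 was PTX3, at -0.99, named after its values were seen. Among 9 proteases and partners of versican, of which 5 were tested in MDST8, 1 was called up and 2 down in clone 1.1, 0 and 2 in clone 2.2, 1 and 1 in clone 3.2, 1 and 2 in clone 3.5, and 1 and 3 in clone 3.6. ADAMTS1, which cuts versican, fell in clones 1.1, 3.2, 3.5 and 3.6, by 1.15, 1.69, 0.80 and 2.80. It had 1055 to 1348 counts in WT, 164 to 202 in clone 3.6 and 783 to 854 in clone 2.2, where its change of -0.55 was not called but reached -0.60 and was called without WT replicate A. ADAMTS5, another protease that cuts versican, named after its values were seen, rose in clones 1.1, 3.2 and 3.5, by 1.27, 0.89 and 0.84, and in clone 2.2 fell by 2.39. FBLN1, a fibulin that binds versican, took every direction, with 198 to 228 counts in WT, 2 to 6 in clone 2.2 and 1300 to 1383 in clone 3.6. In clone 3.2 it was at -0.03, which turned to 0.04 under limma on log2 counts and to 0.01 without WT replicate B. In LoVo it went from 1 to 6 counts to 865 to 1006, while the versican-cutting ADAMTS9 went from 56 to 67 counts down to 1 to 3. This list's medians in the clones lay between -1.05 and -0.03, and in LoVo, with 2 genes tested, the median was 1.65.

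Of 25 genes of chondroitin sulfate synthesis, which makes the side chains of versican, 22 were tested in MDST8, with 1 to 5 called up per clone and 0 to 3 down. Medians were 0.06 to 0.26. XYLT1, which attaches the first sugar to the core protein, rose in 4 clones, by 0.855 to 2.89, and in clone 2.2 fell by 2.56, from 50 to 56 counts in WT to 5 to 17. CHST11, a chondroitin sulfotransferase, rose in clones 1.1, 3.2, 3.5 and 3.6, by 0.62 to 1.68, and was at 0.07 in clone 2.2. Its clone 3.5 call was lost without WT replicate C, at 0.57, and under limma on log2 counts, at 0.56. In LoVo 8 of 24 were called up and 4 down, with a median of 0.30 against 0.01 over all genes tested. CHST15, another sulfotransferase, went from 0 to 3 counts to 1816 to 2015 there, CHST11 rose by 1.77 and CSGALNACT2 by 1.87.

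Of the 10 genes that splice, cut, anchor or bind CD44, SPP1, which encodes the CD44 ligand osteopontin, fell in every clone, by 0.79 to 1.74, from 856 to 889 counts in WT to 260 to 524. It was the only gene of the 7 tested that was called in clones 1.1 to 3.5, and in clone 3.6 MMP14, a protease that sheds CD44, was called up by 0.95, named after its values were seen. List medians were -0.04 to 0.16 in the clones. In LoVo 4 of the 8 tested were called up and none down, with a median of 0.65. SPP1 was not tested there and had 0, 0 and 1 counts under the control label and 18, 22 and 16 under the TWIST1 shRNA label. ESRP1, a splicing factor that favors epithelial CD44 forms, went from 276 to 286 counts to 6464 to 7541, and EZR, the CD44-to-actin linker ezrin, rose by 1.49. ESRP1 had at most 3 counts in any MDST8 library. The gene counts do not separate CD44 splice forms.

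**Figure D4:**
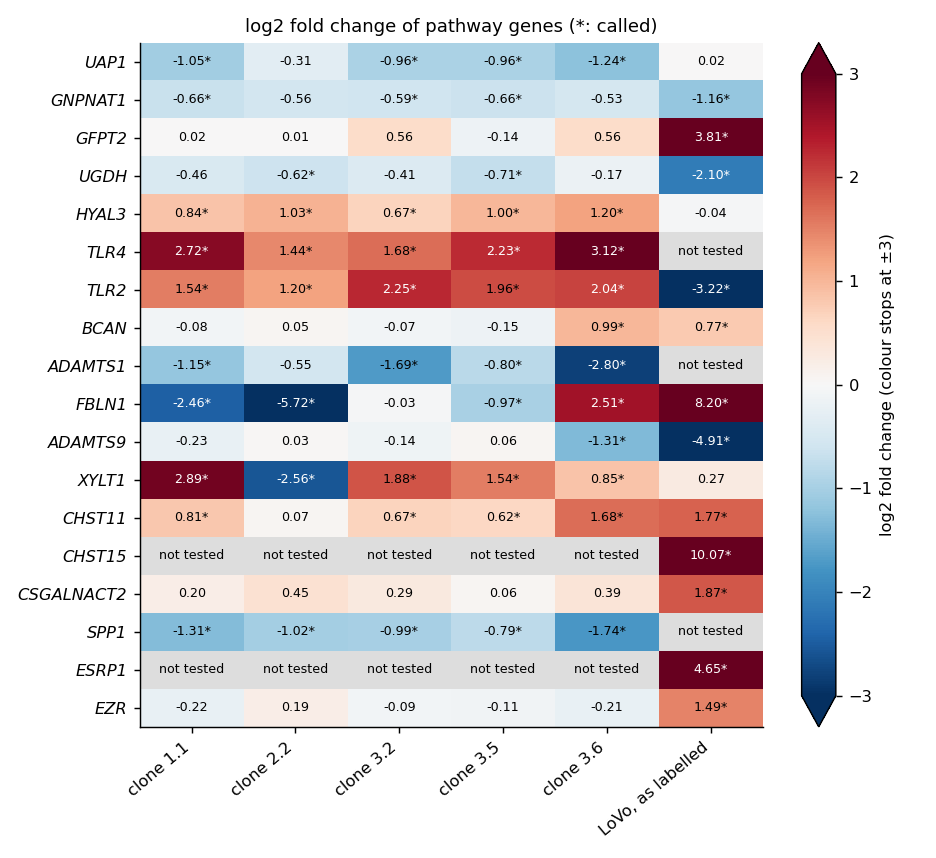
Log2 fold change of 18 named pathway genes in the 5 clones against WT and in LoVo as labelled, with asterisks for called values, grey for genes not tested, and colours that stop at 3 in either direction. TLR4, TLR2 and HYAL3 were called up and SPP1 down in all 5 clones, while FBLN1 and XYLT1 were called in opposite directions in different clones.

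Genes whose levels followed VCAN most closely over the 18 MDST8 libraries were FMN1, ROBO1 and MYO5A, with Pearson r of 0.988, 0.984 and 0.983 on log2 CPM. FMN1, an actin-nucleating formin, went from 67.1 ± 3.52 CPM in WT, normalized within MDST8, to 132 to 168 in the clone means (SD, n = 3). For CD44 they were PANX1, ADGRL1 and GEM, with r of 0.985, 0.970 and 0.967. PANX1, a membrane channel, had 134 ± 5.40 CPM in WT, 240 ± 3.05 in clone 3.2 and 116 ± 2.44 in clone 2.2 (SD, n = 3), the same order at its ends as CD44. The 18 points share a cell line and fall into 6 groups, so these values describe likeness only.

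The TWIST1 peak lists, called by the study at a p-value under 0.05 and without replicates, placed at least 1 peak within 3000 bp of the GENCODE 5′ end of 6 members in MDST8. These were VCAN, CD44, HMMR, HAS2, HAS3 and HYAL2, and 70.8% of 20046 protein-coding genes had such a peak as well. In LoVo the 4 members were CD44, HMMR, HAS2 and HYAL2, against 57.2% of genes. TWIST1 mRNA had 0 counts in every LoVo library labelled control. Whether the peaks listed for LoVo reflect TWIST1 binding was not tested. Both shares are near the background and are no result about the members. CEMIP and CEMIP2 had no such peak in either line. When the start of every transcript was counted, all 8 members had one in MDST8 and 7 in LoVo, all but HAS3, against 83.8 and 77.6% of genes.

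Fold enrichments over the local background of the peak caller were modest. VCAN had 2 peaks in MDST8, with fold enrichments of 2.64 and 1.83 and summits 649 and 38 bp upstream of the 5′ end. The first is the sequence printed above, with a p-value of 0.00122 and a q-value of 0.755. In LoVo VCAN had no peak in this window, although 13 summits lay in its 110.7 kb gene body, the lowest q-value among them 0.0471. CD44 had peaks of 2.35 and 3.11 in MDST8, with summits 79 bp upstream and 886 bp downstream, and of 2.82 in LoVo, where a further peak of 2.5 only reached the edge of the window. The LoVo peak of 2.82 overlapped the printed CD44 sequence. HAS2 had the highest value, 3.89 in MDST8, 1038 bp downstream of its 5′ end, with a q-value of 0.128, and 2.01 in LoVo. No promoter peak of a member reached a q-value of 0.05, and 0.317% of all MDST8 peaks and 0.465% of LoVo peaks did.

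**Figure D5:**
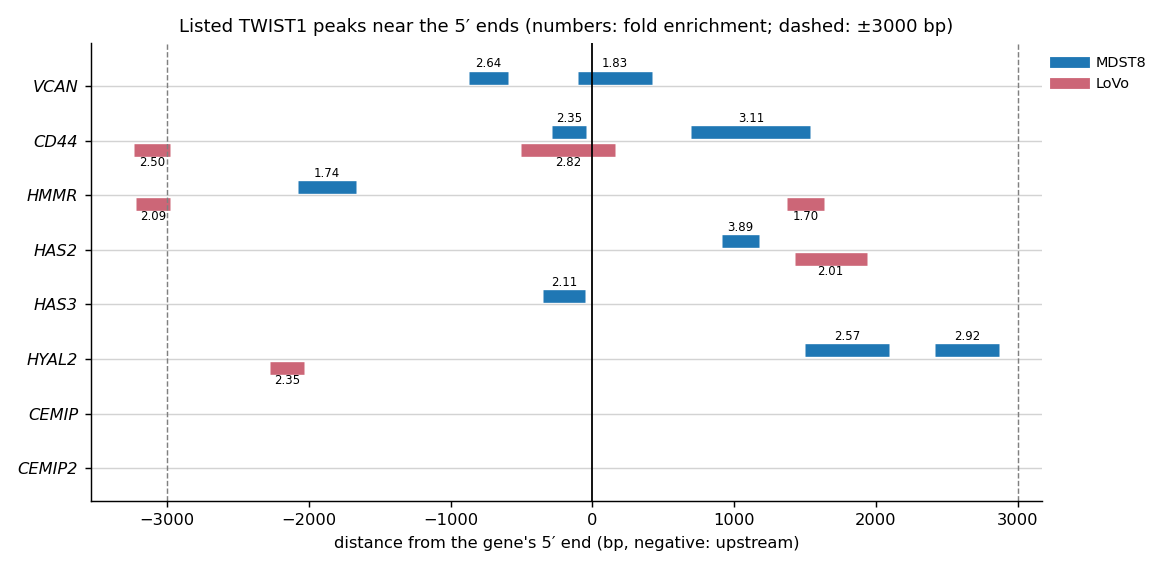
Listed TWIST1 peaks of MDST8 (upper bars) and LoVo (lower bars) by distance in bp from the 5′ end of each member, negative upstream, with the fold enrichment over local background beside each bar and dashed lines at 3000 bp. Peaks overlapped the 5′ end of VCAN in MDST8 and of CD44 in LoVo, HAS2 had the highest enrichment at 3.89, and CEMIP and CEMIP2 had none within 3000 bp of this end.

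In the RefSeq promoter table of GRCh38.p14, 7 members had an entry. Over the 250 bases before the start site, E-boxes CANNTG were in HMMR (3), HYAL2 (2), HAS3 (1) and CEMIP (1), and in none of VCAN, CD44 and CEMIP2, where 61.8% of 35116 promoters held at least 1. The hexamer CATCTG or CAGATG was in none of the 7 and in 12.2% of all promoters. RefSeq and GENCODE place some starts apart, for VCAN at 83471744 and 83471618 and for CEMIP2 at 71768513 and 71816690. HAS3 has 69107540 and 69105653, so the windows are not the same. All of the CD44 and HMMR windows lay in annotated GENCODE exons of the same gene, and those of VCAN, HYAL2 and CEMIP did in part.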

How the data were processed

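The authors trimmed reads with Trim Galore 0.6.6, aligned them to hg38 with HISAT2 2.1.0 and SAMtools 1.6, and deposited whole-number counts per gene from featureCounts 2.0.0, which per the file headers counted pairs without strand on GENCODE v43 and left out fragments overlapping several genes. Names came from GENCODE v44. TWIST1 ChIP-seq was aligned with Bowtie2 2.4.5. The deposited MACS2 2.2.7.1 peak lists give a fold enrichment (ratio) over local background and −log10 p-values and q-values, 1 list per line. Use of the input as control is not given in the sources used here.

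Genes with a geometric mean RPM of at least 1 in a line (offset 1) were tested, 13706 in MDST8 and 14270 in LoVo, with edgeR 4.0.16 (R 4.3.3) quasi-likelihood fits, TMM factors and Benjamini-Hochberg adjustment over all genes. All 18 MDST8 libraries shared a fit and the 6 LoVo libraries another. Standard errors were the size of the log2 change divided by the square root of the F statistic of its test. A call needed a log2 change over 0.58 in size and an adjusted p under 0.05. Tests among clones and between lines used the adjusted p alone. CPM values were TMM-normalized over 24 libraries, and RPKM divides them by exon length. Scripts were tested on simulated data. Alternatives used DESeq2 1.42.0 and limma 3.58.1. Members, gene lists and tests were chosen with earlier results of these data known. Pathway genes were named by rule, per list at most 2 called one way in at least 3 clones with the largest mean change and at most 2 with the largest called LoVo change.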

Additional observations from a re-analysis of the deposited data

Results flagged for a closer look

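The LoVo change, as labelled, differed from the mean change of the 5 MDST8 clones by the test of the difference itself in 7 members. On the log2 scale the differences were 11.89 for VCAN, which rests on 1 control count, 1.65 for CD44, 0.97 for HMMR, 2.39 for HAS3, 0.38 for HYAL2, 1.23 for CEMIP and -1.85 for CEMIP2. The lines also differ in how TWIST1 was targeted, and TWIST1 counts in LoVo run against the labels, so line, method and label cannot be told apart here.

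The clones differed among themselves in 8 members by the F test, which also called 81.0% of all genes. The log2 range over the clones was 0.28 for VCAN, 0.45 for CD44, 0.27 for HMMR, 0.75 for HAS2, 1.32 for HAS3, 0.28 for HYAL2, 1.37 for CEMIP and 0.60 for CEMIP2. With 1 clone per group of libraries, differences between clones cannot be told apart from differences between the cells they grew from.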

How the results depend on the processing

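For the members, 54 results were recomputed to give 512 values. Of the fits with single replicates left out, only the lowest and highest value per result were kept. Where any of those fits changed the call, both values carry its label. On that basis 499 were labelled unchanged, 10 as losing the call, 3 as gaining it and 0 as reversed. In clone 3.5 the count of called members was 1 to 2 when single replicates were left out, with 2 without clone 3.5 replicate B. The F test called 4 members when a range over 0.58 was also required, a rule chosen after seeing the data. FBLN1 in clone 3.2 changed sign to 0.04 under limma on log2(count + 1) and spanned -0.06 to 0.01 when single replicates were left out. Under limma on log2(count + 1) HYAL2 was called in clone 3.6, at 0.65, where the median of all genes also moved, to 0.128, and the calls of HAS3 in clone 3.2 and HAS2 in clone 3.6 were lost, at -0.61 and -0.48, as were those of GNPNAT1 in clone 3.2 and CHST11 in clone 3.5, at -0.52 and 0.56. Members with a promoter peak in MDST8 numbered 3 with the p-value limit set to 0.001, 0 with a q-value limit of 0.05, and 8 counting the start of every transcript. Of all protein-coding genes 23.3, 0.469 and 83.8% had a peak under these rules. In LoVo they numbered 1 within 1000 bp, 1 under that p-value limit, 0 under that q-value limit and 7 counting the start of every transcript. There 30.5, 17.3, 0.359 and 77.6% of protein-coding genes had a peak. The cause was not tested.

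Replicate letters are shared between MDST8 groups but did not pair the libraries, since 3 of 45 same-letter pairs had deviations correlated over 0.1 and 3 of 18 libraries correlated best with their own letter. With the letter as a replicate block, 5, 2, 5, 1 and 4 members were called in clones 1.1, 2.2, 3.2, 3.5 and 3.6, the same numbers as without it, and the genes called in clone 3.6 numbered 3704. Low counts limit HAS3 and CEMIP in MDST8 and HAS2 in LoVo.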
